A study of Caenorhabditis elegans with 2 samples.

Results

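The mitochondrial ribosomal protein genes are the nuclear protein-coding genes whose names start with mrpl- (large subunit) or mrps- (small subunit) in the Ensembl annotation of the Caenorhabditis elegans genome. There were 70 of them among 19973 nuclear protein-coding genes, 41 for the large and 29 for the small subunit. They lay on chromosomes III (22 genes), I (15), II (12), IV (11) and V (10), with 0 on the X chromosome. Binding of TBX-11, a transcription factor of the T-box family, was examined by chromatin immunoprecipitation and sequencing in whole early embryos of the nematode strain OP368, labelled as 1 hour old and obtained by egg bleaching. All libraries came from the same strain, which carries the extra transgene wgIs368 (tbx-11:TY1 EGFP 3xFLAG on a trimmed fosmid, with an unc-119(+) rescue) in an unc-119(tm4063) background. There were 2 biological replicates of this 1 group, so the design holds no contrast between conditions. Per the labels the chromatin was sonicated and pulled down through GFP, while the antibody field names tbx-11, and the list of a strain without the tag was not analysed here.

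Mitochondrial ribosomes translate the few proteins encoded by the mitochondrial genome, which are core subunits of the respiratory chain and of ATP synthase. Their protein subunits are encoded in the nucleus, made on cytosolic ribosomes and imported, and some have counterparts in bacterial ribosomes while others exist only in mitochondria. In C. elegans, reduced expression of mitochondrial ribosomal proteins such as mrps-5 is known to trigger the mitochondrial unfolded protein response and to lengthen life. Many C. elegans genes lie in operons, in which genes on 1 strand with short gaps between them are transcribed together, so a downstream gene need not have a promoter of its own.

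The sequences below show the places the results turn on, all on assembly ce11 (WBcel235) and read from the RefSeq sequence of that assembly. The first is the strongest peak at any of these genes, chrV:19643109-19643389 on the plus strand upstream of mrps-28, where the capitals mark a B box core, the inner promoter element of tRNA genes (GTTCGANNC, read on the other strand). The others are stretches, within 150 bp of the summit, between a gene and its divergent neighbour. They hold the candidates that lay up to 200 bp upstream of a start among the 10 strongest, with 21 bases centred on the summit in capitals. They are chrV:1821334-1821578 on the plus strand for mrpl-39, chrIII:6431799-6432089 on the minus strand for mrps-17, and chrIII:4542453-4542678 on the minus strand for mrps-34.
mrps-28: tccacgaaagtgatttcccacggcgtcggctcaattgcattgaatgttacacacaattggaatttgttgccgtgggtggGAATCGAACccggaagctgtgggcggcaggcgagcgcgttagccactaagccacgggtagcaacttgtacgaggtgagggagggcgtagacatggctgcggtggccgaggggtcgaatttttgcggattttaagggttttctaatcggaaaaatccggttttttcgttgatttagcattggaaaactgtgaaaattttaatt
mrpl-39: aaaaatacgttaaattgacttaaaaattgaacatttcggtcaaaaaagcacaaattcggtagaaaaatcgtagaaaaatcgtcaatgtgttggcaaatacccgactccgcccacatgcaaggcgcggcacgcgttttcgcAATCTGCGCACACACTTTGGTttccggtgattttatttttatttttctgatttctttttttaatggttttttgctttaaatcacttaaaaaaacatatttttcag
mrps-17: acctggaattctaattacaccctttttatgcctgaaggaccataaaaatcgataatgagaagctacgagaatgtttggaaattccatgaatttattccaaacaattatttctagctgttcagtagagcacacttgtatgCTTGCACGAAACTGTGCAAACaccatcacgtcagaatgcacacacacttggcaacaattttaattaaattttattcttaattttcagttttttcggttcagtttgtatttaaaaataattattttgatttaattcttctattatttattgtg
mrps-34: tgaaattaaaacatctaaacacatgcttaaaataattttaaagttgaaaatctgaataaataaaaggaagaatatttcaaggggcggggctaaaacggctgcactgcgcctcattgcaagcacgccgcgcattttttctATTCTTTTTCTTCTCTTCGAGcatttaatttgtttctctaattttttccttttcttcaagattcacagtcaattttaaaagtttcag

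The authors deposited 4 thresholded lists, which hold peaks that passed a reproducibility threshold, and 4 ranked lists, which hold candidates without that threshold. There were 882 nuclear peaks in the conservative thresholded list of both replicates, 1042 in the other pooled thresholded list, 546 in that of replicate 1 and 467 in that of replicate 2. The ranked lists held 87796, 105251, 55286 and 45180 nuclear candidates in the same order. A summit, the highest point of a peak, was assigned to a gene if it lay from 1000 bp upstream to 500 bp downstream of the annotated gene start (the start window). The signal of a peak is the authors' own measure of its strength on a scale the sources do not state, and values are compared within a list only.

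Few mitochondrial ribosomal protein genes had a thresholded peak, and in the conservative list their share was close to that of all genes. In the conservative thresholded list 2 of 70 genes had a summit in the start window (2.86%, Clopper-Pearson 95% interval 0.348 to 9.94), against 489 of all 19973 genes (2.45%). These were mrps-28 and mrpl-23. The other pooled thresholded list added mrpl-39, for 3 of 70 (4.29%, interval 0.893 to 12.0) against 2.75% of all genes. Replicate 1 had the same 3 genes (4.29%, interval 0.893 to 12.0), against 1.53% of all genes. Replicate 2 had mrps-28 and mrpl-23 (2.86%, interval 0.348 to 9.94), against 1.21%. The share was thus higher than that of all genes in each replicate, within intervals that include it. With 70 genes, 1 gene more or less moves such a share by more than the difference from all genes in the conservative list.

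The peak assigned to mrps-28, which encodes a small-subunit protein, was 281 bp wide and had its summit 994 bp upstream of the start. Its signal was 464 in both pooled lists, 269 in replicate 1 and 206 in replicate 2, with the highest possible score of 1000 in each. It ranked 13 in the conservative thresholded list and 34 among the 87796 ranked candidates. The summit was inside the divergent neighbour Y43F8C.7, in an intron, and 785 bp from the start of that gene. It was 58 bp from the snoRNA gene Y43F8C.22, which holds the first 79 bases of the peak printed above. That snoRNA gene is annotated on the minus strand. The B box core in capitals lies directly upstream of its annotated start, on the same strand, and 49 bp from the summit.

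The peak assigned to mrpl-23, which encodes a large-subunit protein, was 156 bp wide (chrI:6212767-6212922) and had its summit 966 bp upstream of the start. Its signal was 261 in both pooled lists, 144 in replicate 1 and 116 in replicate 2, again with a score of 1000 in each. The summit lay within fars-1, which encodes a cytosolic phenylalanyl-tRNA synthetase subunit and ends 95 bp upstream of mrpl-23 on the same strand. Other genes are annotated at the same place, among them the snoRNA gene T08B2.13. Directly under the summit are the non-coding RNA gene T08B2.14 and a tRNA pseudogene by the RefSeq annotation. No B box core was found in this peak. Both conservative peaks thus lay near the far edge of the start window, inside another protein-coding gene and within 100 bp of a small RNA gene, and 0 members had a thresholded summit in the window when such peaks were left out (364 of all genes, 1.82%). Whether the signal at either peak belongs to the ribosomal protein gene or to the small RNA gene was not tested.

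The peak at mrpl-39, a large-subunit gene, was the only thresholded peak close to a start. It was 330 bp wide and its summit was 95 bp upstream, in the 255 bp gap between mrpl-39 and the divergent gene gly-7, which encodes a polypeptide N-acetylgalactosaminyltransferase. The summit was in the start window of both genes, nearest to mrpl-39, and no small RNA gene was within 100 bp. Its signal was 90.9 in both pooled lists, 71.3 in replicate 1 and 26.6 in replicate 2. The replicates differed in standing, since the peak had a score of 1000 in replicate 1 and of 20 in replicate 2. In the conservative ranked list its score was 787, under the lowest score of 830 among the thresholded peaks of that list.

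**Figure D1:**
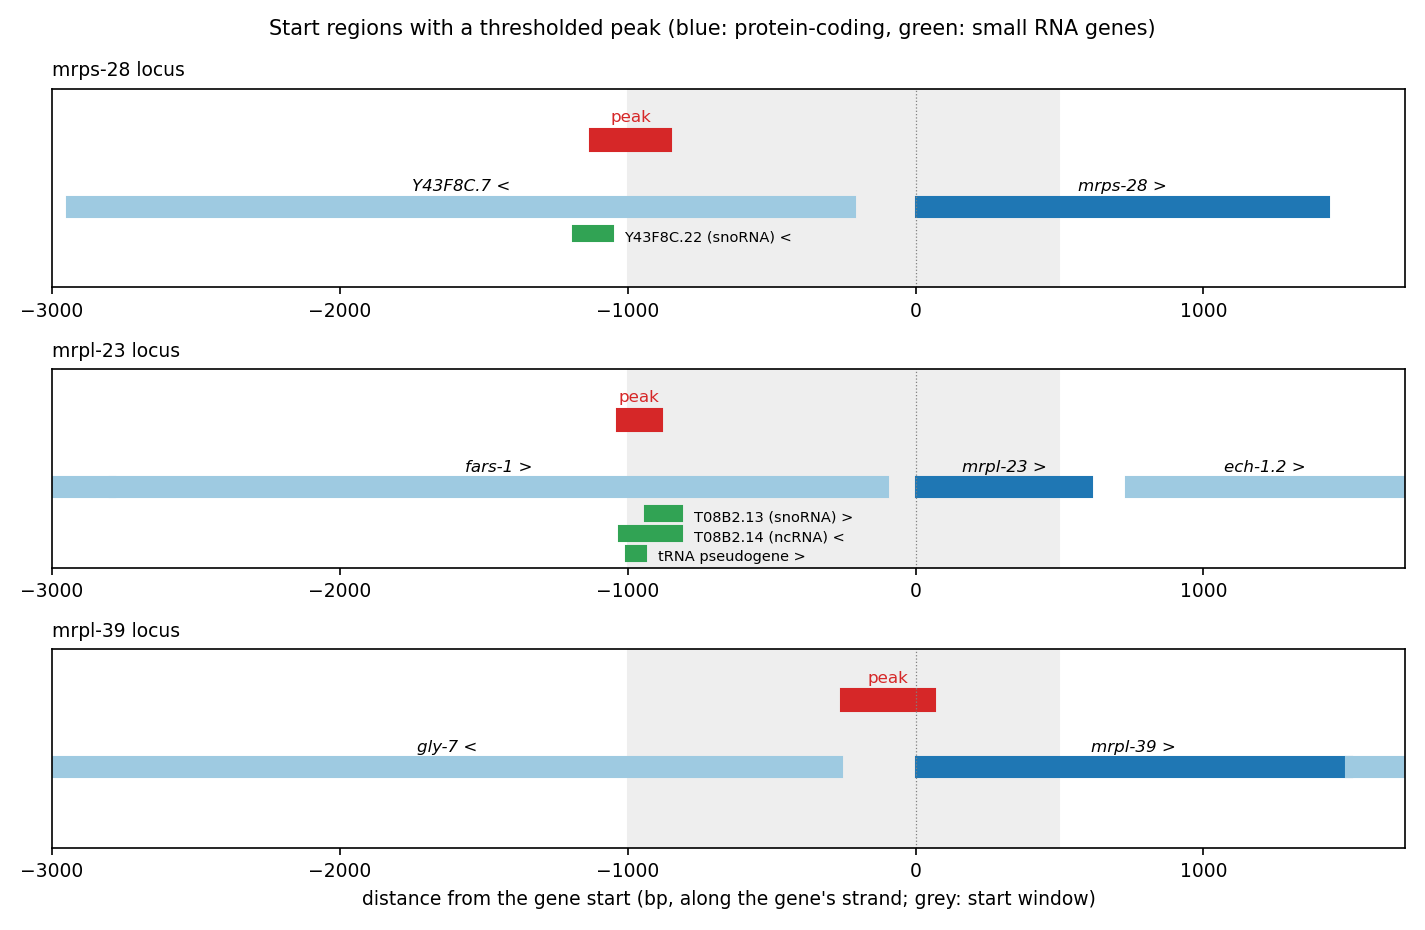
Maps of the start regions of mrps-28, mrpl-23 and mrpl-39, with distance from the gene start in bp on the x axis and the start window in grey. Red bars are the peaks and blue bars protein-coding genes. Green bars are small RNA genes and, at mrpl-23, also a tRNA pseudogene. The marks > and < stand for the same and the opposite strand as the named gene. The peaks of mrps-28 and mrpl-23 lie 994 and 966 bp upstream inside a neighbour and at small RNA genes, and the peak of mrpl-39 lies 95 bp upstream in a gap between divergent genes.

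Thresholded peaks were also found close to, but outside, the start windows of members. A peak with a signal of 143 had its summit 1226 bp upstream of mrpl-36 (chrIII:9849177-9849506), whose start was the nearest. Its signal was 86.9 in replicate 2, past the threshold there, and 55.9 in replicate 1, where its score of 687 was under the threshold. A peak 1208 bp upstream of mrps-6 had a signal of 114 in the pooled lists, 72.4 in replicate 1 and 42.9 in replicate 2. It passed the threshold in replicate 1 and not in replicate 2, where its score was 138. It lay inside rpn-8, a proteasome subunit gene that is divergent to mrps-6, at the snoRNA gene R12E2.17. When each summit was given to the nearest start within 5 kb, 2 members were named (2.86%, against 3.53% of all genes), mrpl-36 and mrpl-23, and mrps-28 dropped out. No conservative thresholded summit lay inside the body of a member (0 of 70), against 1.63% of all genes. A share that low amounts to few genes among 70, and gene length was not taken into account. The distance from a member's start to the nearest conservative thresholded summit had a median of 43062 bp, against 45351 bp over all genes, and 4 members (5.71%) were within 5 kb of one, against 8.49% of all genes.

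Most of these genes had a candidate of the ranked lists in the start window, and at 56 of them the strongest was not a peak of the conservative thresholded list. The conservative ranked list had a candidate at 58 of 70 (82.9%, interval 72.0 to 90.8), against 67.9% of all genes. The other pooled ranked list had one at 63 (90.0%) against 74.3%, replicate 1 at 50 (71.4%, interval 59.4 to 81.6) against 51.9%, and replicate 2 at 47 (67.1%, interval 54.9 to 77.9) against 51.7%. The share was thus higher than that of all genes in each ranked list, and the printed intervals did not include it. These intervals treat genes as independent, which neighbours that share a peak are not. Members also have close neighbours more often than other genes do, and the part of this in the share was not tested.

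The strength of these candidates differed little from that of other genes. The strongest candidate of a member had a median signal of 34.9 in the conservative ranked list, with quartiles of 27.5 and 45.9 and a range from 11.5 to 464. Over all genes with a candidate the median was 31.7, with quartiles of 23.4 and 42.0. In replicate 1 the medians were 25.0 for members and 22.4 for all genes, and in replicate 2 they were 17.0 and 17.8, so the order of the medians was not the same in both replicates. Beyond mrps-28 and mrpl-23, whose candidates were higher than those of 99.9% and 99.6% of genes with one, the highest value was 90.9, at mrpl-39.

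**Figure D2:**
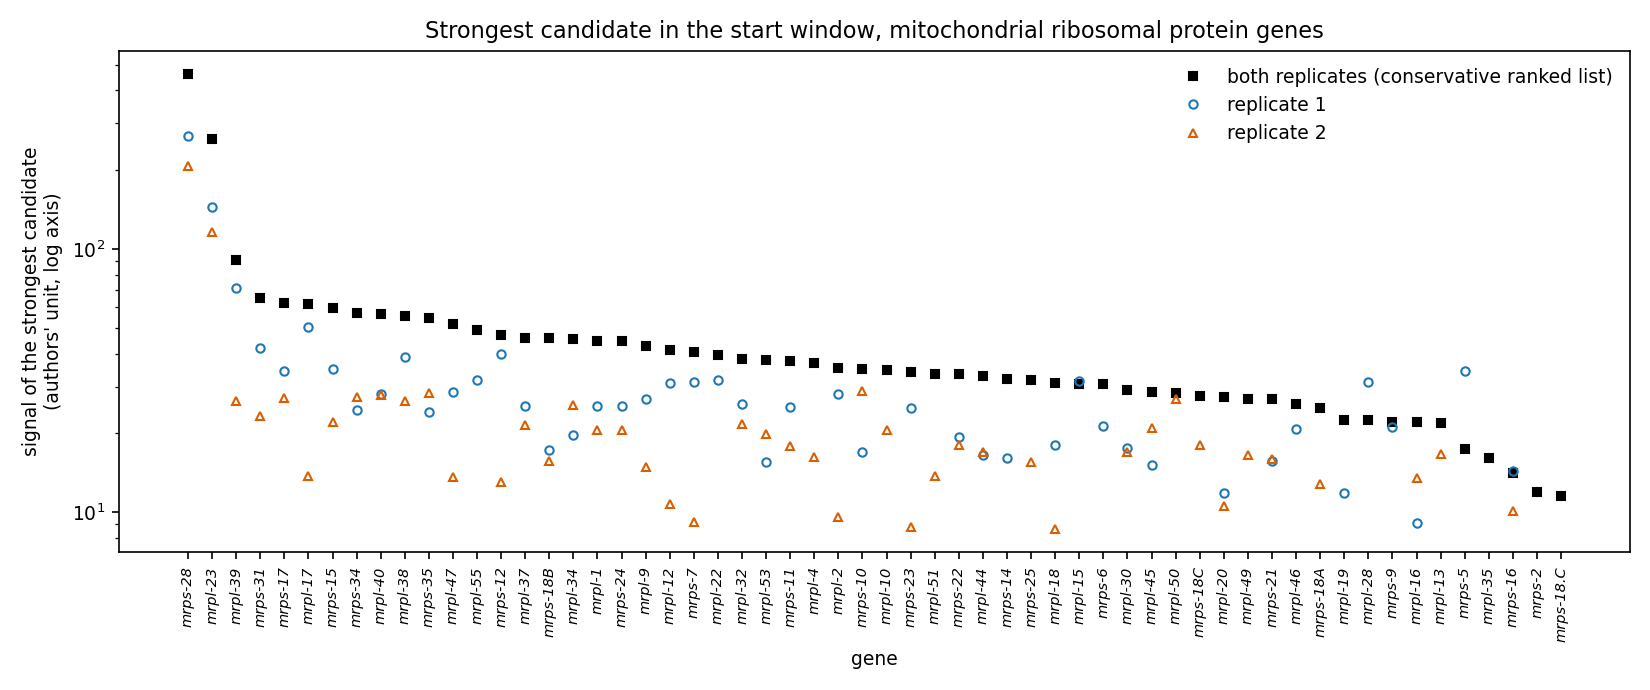
Signal of the strongest candidate in the start window (y axis, authors' unit, logarithmic) for the 58 mitochondrial ribosomal protein genes with one in the conservative ranked list (x axis, ordered by it). Squares are the pooled list, circles replicate 1 and triangles replicate 2, each the strongest in the window of its own list and on its scale, not always at 1 place. Past mrps-28 (464) and mrpl-23 (261) the values run from 90.9 down to 11.5.

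Of the 10 members with the strongest candidates, 6 shared theirs with a divergent neighbour. Distances given for these are of the pooled summits unless a replicate is named, and replicate summits could lie elsewhere. Next after mrpl-39 came mrps-31, a small-subunit gene, with a signal of 65.3 in the pooled list, 42.2 in replicate 1 and 23.3 in replicate 2, 678 bp upstream of its start. The candidate of mrps-17 had 62.4, 34.5 and 27.1 in the same order and its summit 142 bp upstream, in the gap shared with txdc-9 that is printed above. At mrpl-17 the values were 61.8, 50.8 and 13.7, with the summit 554 bp upstream and nearer to vbh-1, a DEAD-box RNA helicase gene. The summit of replicate 2 was 406 bp upstream of mrpl-17. These 3 rank alike in the pooled list while the replicates do not, with mrpl-17 highest of the 3 in replicate 1 and lowest in replicate 2.

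The candidate of mrps-15 had a signal of 59.9 in the pooled list, 35.1 in replicate 1 and 22.0 in replicate 2, with its summit 149 bp downstream of the start. It was also in the window of asg-1, which encodes a subunit of mitochondrial ATP synthase and starts 324 bp away in the other direction. At mrps-34 the values were 57.2, 24.5 and 27.4, with the pooled summit 77 bp upstream and that of replicate 1 208 bp upstream. The pooled candidate was shared with cisd-3.1, a gene for a CDGSH iron-sulfur domain protein. The candidate of mrpl-40 had 56.8, 28.1 and 28.0, was 235 bp upstream and was shared with F54C4.4 and with attf-3, an AT-hook transcription factor family gene. At mrpl-38 the values were 55.8, 38.8 and 26.4, with the summit 69 bp downstream of the start and in no other gene's window. Below these 10, the other 48 members with a candidate had signals of at most 54.8.

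The scores of these candidates, which express how reproducibly a peak ranked, were mostly low. The median score of the strongest candidates was 74, against 67 over all genes. The lowest score in use, 24, was given to 13 of 58 members (22.4%) and to 30.8% of all genes with a candidate. A score of at least 540, a limit added after the data were seen, was reached by mrps-28, mrpl-23, mrpl-39, mrpl-38 and mrps-17, 5 of 70 members (7.14%) against 815 of all genes (4.08%).

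The replicates named partly different genes and places, at members as over all genes. Of the 58 members with a pooled candidate, 42 had it overlapped by a candidate of replicate 1 and 39 by one of replicate 2. The same overlap was not counted over all genes. A candidate was present in both replicate ranked lists at 36 members (51.4%, against 34.5% of all genes). It was in replicate 1 alone at 14, in replicate 2 alone at 11 and in neither at 9. Over all genes, 51.9% had a candidate in replicate 1 and 51.7% in replicate 2, so many had one in a single replicate there too. At 22 of the 36 (61.1%, against 54.3% of all genes) the summits of the replicates were within 200 bp. Across the 36 genes the ranks of signal had a Spearman correlation of 0.299, as a description over genes that share the libraries, and without mrps-28 and mrpl-23 it was 0.168 over 34. Over the 6896 genes with a candidate in both lists it was 0.343.

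The large and small subunits had similar shares. In the conservative ranked list 33 of 41 large-subunit genes (80.5%, interval 65.1 to 91.2) and 25 of 29 small-subunit genes (86.2%, interval 68.3 to 96.1) had a candidate, with median signals of 35.2 and 34.1. By the naming of the mammalian proteins, 44 members have a bacterial counterpart and 26 are specific to mitochondria, a grouping made after the data were seen. Of the former 40 (90.9%, interval 78.3 to 97.5) and of the latter 18 (69.2%, interval 48.2 to 85.7) had a candidate, with medians of 34.9 and 36.0. The shares were closer in the replicates, with 72.7% and 69.2% in replicate 1 and 68.2% and 65.4% in replicate 2.

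Members were often close to another gene. A same-strand gene ended within 500 bp upstream of 27 members (38.6%, against 19.0% of all genes), with a median gap of 105 bp, and 19 of these gaps were between 80 and 120 bp. Another 26 (37.1%, against 17.5% of all genes) had a divergent gene start within 1000 bp upstream, at 53 to 857 bp with a median of 380, and 17 (24.3%, against 63.5%) had neither. Gaps near 100 bp are usual within C. elegans operons, but operon annotation was not used here and the classes rest on position alone.

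In the conservative ranked list, candidates were most frequent at divergent starts. All 26 divergent members had one (100%, interval 86.8 to 100), against 74.0% of all divergent genes. Of the 27 members behind a same-strand gene 18 had one (66.7%, interval 46.0 to 83.5, against 69.6% of all such genes), and of the remaining 17 it was 14 (82.4%, interval 56.6 to 96.2, against 65.6%). In replicate 1 the shares were 76.9%, 59.3% and 82.4% in the same order, and in replicate 2 they were 92.3%, 48.1% and 58.8%. Divergent members were above members behind a same-strand gene in both replicates, and their order against the remaining 17 differed between replicates. The median signal was 42.0 at divergent members, 30.6 behind a same-strand gene and 33.6 at the rest, against 35.1, 31.2 and 31.0 over all genes. In replicate 1 divergent members were below the rest (25.3, against 26.8).

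**Figure D3:**
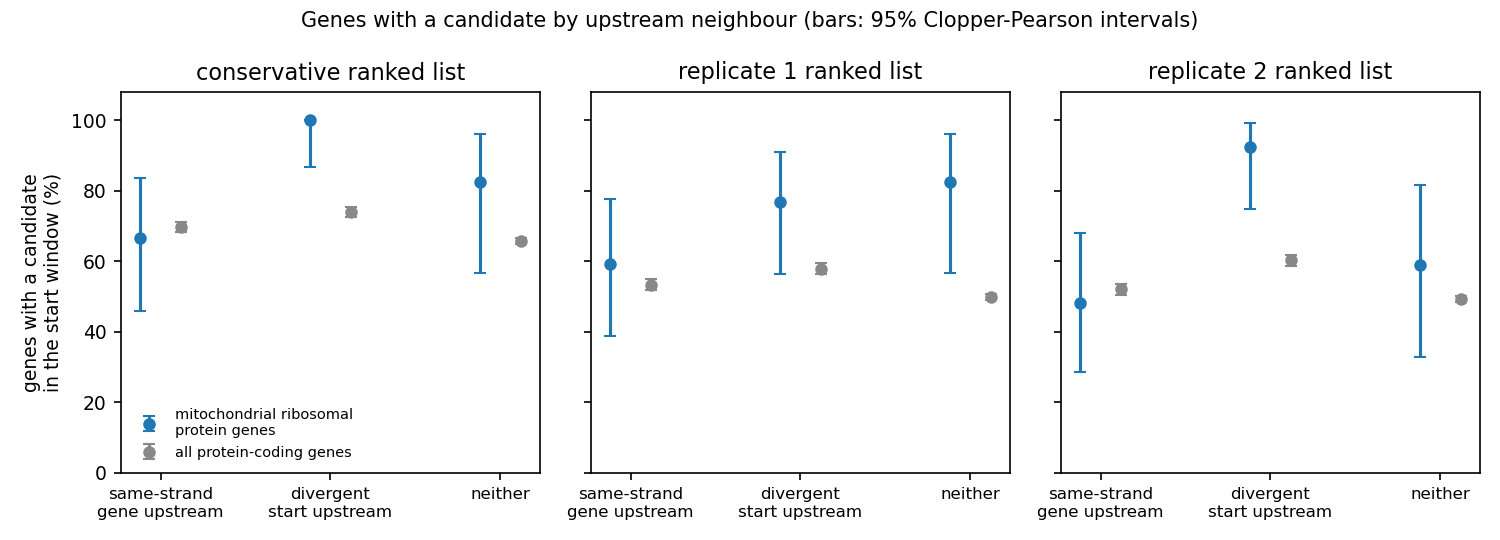
Share of genes with a candidate in the start window (y axis, percent) by upstream neighbour (x axis) in 3 ranked lists, for the mitochondrial ribosomal protein genes (blue) and all protein-coding genes (grey), with Clopper-Pearson 95% intervals. Divergent members stand at 100%, 76.9% and 92.3% in the 3 lists, against 74.0%, 57.9% and 60.3% of all divergent genes.

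Many candidates were shared between neighbours. The strongest candidate of 29 of the 58 members (50%) was also in the start window of another protein-coding gene, against 25.8% of all genes with a candidate. At 25 of the 26 divergent members (96.2%) it was shared with the divergent partner, against 90.0% of all divergent genes, so such sharing is usual for that arrangement. A member's own start was the nearest to the summit at 46 of 58 (79.3%, against 85.0% of all genes). One candidate, with a signal of 44.6 in the pooled list and 25.3 in replicate 1, was shared by the divergent members mrpl-1 and mrps-24, whose starts are 344 bp apart, and also by nhr-8 and emc-6. No candidate of replicate 2 overlapped it, and the strongest of replicate 2 in these windows was 615 bp away, with a signal of 20.5. The single exception among divergent members was mrps-28, whose summit was in no other start window.

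Summits were spread over the window. They are counted once per member here, so the candidate shared by mrpl-1 and mrps-24 counts for both. Of the 58 strongest candidates 19 were over 500 bp upstream of the start (32.8%, against 30.0% of all genes), 6 were over 250 and up to 500 bp upstream (10.3%, against 17.9%), 12 were 1 to 250 bp upstream (20.7%, against 20.9%) and 21 were at the start or up to 500 bp downstream (36.2%, against 31.2%). By annotation 21 summits were in the member's own gene (36.2%, against 30.7% of all genes). In another protein-coding gene were 20 (34.5%, against 18.7%), and 17 were between protein-coding genes (29.3%, against 50.6%). A small RNA gene was within 100 bp of 2 of the 58 (3.45%), the peaks of mrps-28 and mrpl-23, near the 4.79% over the distinct strongest candidates of all genes.

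**Figure D4:**
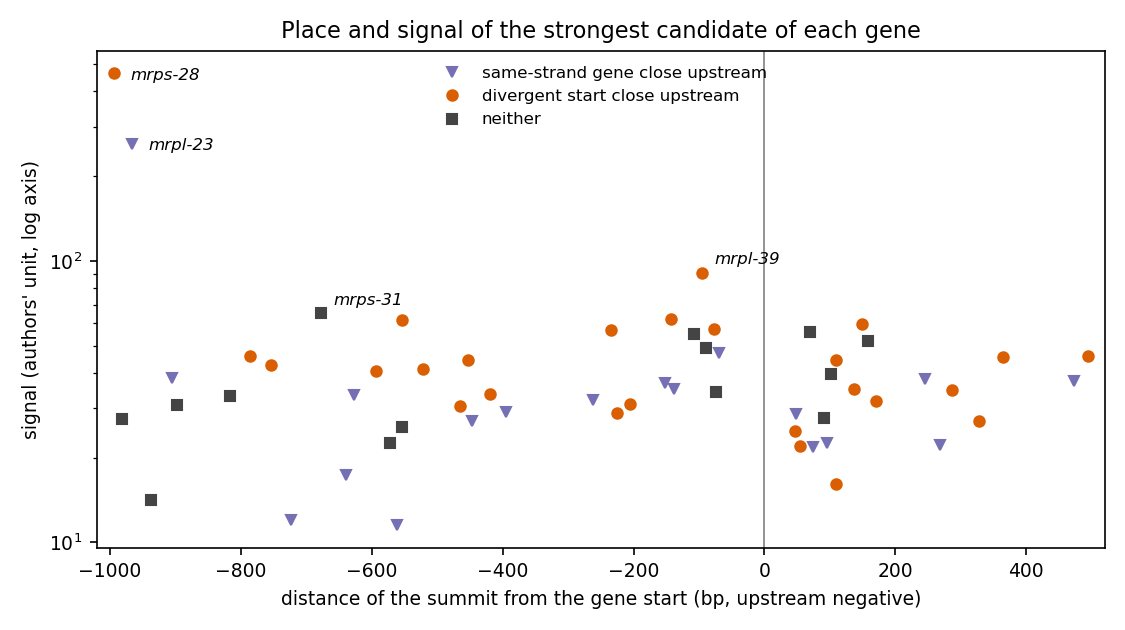
Signal of the strongest candidate (y axis, authors' unit, logarithmic) against its distance from the gene start in bp (x axis, upstream negative) for 58 mitochondrial ribosomal protein genes in the conservative ranked list. Marker shape gives the upstream neighbour of the gene. The signals of 464 and 261 lie at the upstream edge of the window, and the highest one near a start is 90.9 at mrpl-39.

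A run is a series of same-strand genes with such gaps, and its first gene has the start farthest upstream. The window of that first gene held a conservative ranked candidate for 21 of the 27 members (77.8%, against 72.4% of all such genes) and a thresholded summit for 1 (3.70%, against 4.88%). That member was mrps-14, which lies 105 bp behind nrde-2, a nuclear RNA interference gene. A peak 212 bp upstream of nrde-2 had a signal of 102 in the pooled lists, 64.3 in replicate 1 and 38.9 in replicate 2. It passed the threshold in replicate 1 and not in replicate 2, where its score was 322. Another peak, 896 bp upstream and nearest to the start of atad-3, a mitochondrial membrane ATPase gene, had 237, 129 and 105. That peak passed the threshold in both replicates. The candidate in the window of mrps-14 itself had 32.1 in the pooled list, with a score of 24, and 16.1 in replicate 1. Replicate 2 had no candidate in that window.

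Most members without a candidate lay behind a same-strand neighbour. There were 12 in the conservative ranked list, named here after their values were seen: mrpl-11, mrpl-21, mrpl-24, mrpl-36, mrpl-41, mrpl-42, mrpl-48, mrpl-54, mrps-26, mrps-27, mrps-30 and mrps-33. Of these 9 follow a same-strand gene (75.0%, against 38.6% of all members and 17.9% of all genes without a candidate) and 3 are in neither class. Members in that position had a candidate at nearly the share of all such genes (66.7%, against 69.6%). The other pooled ranked list had a candidate at 7 of the 12, and mrpl-11, mrpl-48 and mrps-30 had none in any ranked list.

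Motifs were sought on both strands within 100 bp of the summits of the 57 distinct strongest candidates and at the 11952 of all genes, where the mean GC content was 38.9% and 38.4%. The T-box core GGTGTG was at 0 of 57 (upper 95% limit 6.27%) against 6.43% of all candidates. The GC box GGGCGG was at 8 (14.0%, interval 6.26 to 25.8) against 5.91%, and CGCGCA at 7 (12.3%, interval 5.08 to 23.7) against 5.62%. Both are present in the mrps-34 stretch printed above. The E2F-like TTCCCGCC was at 1 (1.75%, against 1.14%), and the B box core GTTCGANNC, sought after the data were seen, at 2, those of mrps-28 and mrps-9 (3.51%, against 2.02%). In the 300 bp from 250 bp upstream to 50 bp downstream of the starts, GGTGTG was at 3 of 70 members (4.29%, against 7.60% of all starts), GGGCGG at 6 (8.57%, against 7.83%), CGCGCA at 7 (10%, against 6.08%), TTCCCGCC at 0 (against 1.10%) and the B box core at 3 (4.29%, against 1.58%). TTCCCGCC read on the other strand can share bases with GGGCGG. A match or its absence describes these letters in these windows only.

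In the pooled lists, cytosolic ribosomal protein and oxidative phosphorylation genes had thresholded peaks at a higher share. These and the other related groups were defined by gene name alone, the import genes by tomm-, timm-, tim- or tin-. A gene of other function with such a name may be counted. In the conservative thresholded list 14 of 81 cytosolic ribosomal protein genes had a summit (17.3%, interval 9.78 to 27.3), with signals from 72.2 to 209, the highest at rpl-3. So did 8 of 50 oxidative phosphorylation genes (16.0%, interval 7.17 to 29.1). Their highest were cox-6A, a cytochrome c oxidase subunit gene, with 182 at an snRNA gene, and cyc-1, which encodes cytochrome c1, with 129 at 274 bp upstream. The summits at sdha-1 and nduf-9, and at rps-1 and rps-26 of the cytosolic group, were also within 100 bp of a small RNA gene. The shares of these groups without such peaks were not counted. Of 14 mitochondrial import genes 1 had a summit, tomm-20 with 153 (interval 0.181 to 33.9%), and of 19 genes for other parts of mitochondrial gene expression 1 did, ears-2, a mitochondrial glutamyl-tRNA synthetase gene, with 346 at 21 bp upstream (interval 0.133 to 26.0%). The shares were lower in each replicate alone, at 11.1% and 9.88% of cytosolic ribosomal protein genes in replicates 1 and 2, and at 6.0% and 4.0% of oxidative phosphorylation genes. The mitochondrial ribosomal protein genes stood at 4.29% and 2.86% there. In the conservative list, the intervals of the mitochondrial ribosomal protein genes (up to 9.94%) and of the cytosolic ones (from 9.78%) barely overlapped, and the difference was not tested.

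In the conservative ranked list, candidates were found at 79 of 81 cytosolic ribosomal protein genes (97.5%), 46 of 50 oxidative phosphorylation genes (92.0%), 13 of 14 import genes (92.9%) and 16 of 19 gene expression genes (84.2%). The median signals were 43.2, 40.8, 35.6 and 36.0, beside 34.9 for the mitochondrial ribosomal protein genes and 31.7 for all genes. The order of these medians was not the same in the other ranked lists. In replicate 1, import genes (22.1) and gene expression genes (22.5) were below the members (25.0), and in replicate 2 import genes were (16.8, against 17.0).

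**Figure D5:**
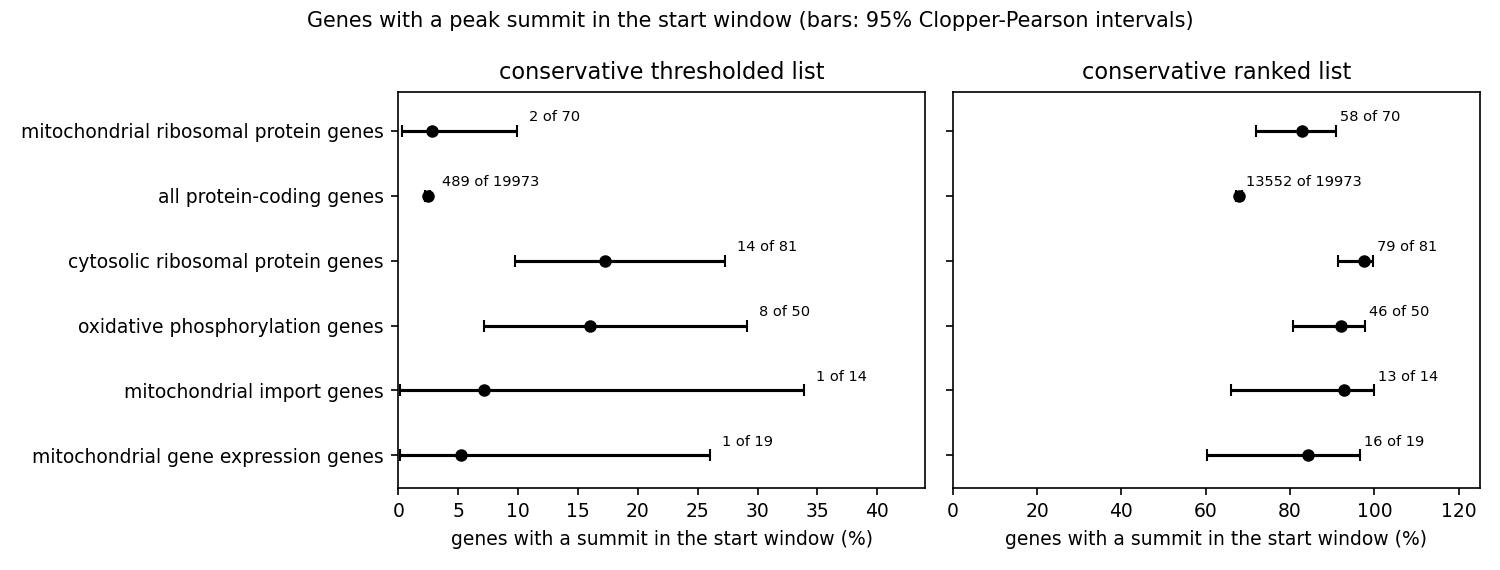
Share of genes with a summit in the start window (x axis, percent) for 6 gene groups (y axis) in the conservative thresholded list (left) and the conservative ranked list (right), with Clopper-Pearson 95% intervals. The mitochondrial ribosomal protein genes stand at 2.86% on the left, beside 2.45% of all genes and 17.3% of cytosolic ribosomal protein genes, and at 82.9% on the right.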

How the data were processed

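Binding of tagged TBX-11 in early embryos was measured by ChIP-seq in 2 biological replicates of 1 group. The peak lists were made and deposited by the authors on assembly ce11, per the labels and file descriptions, each against the same control alignments. The aligner, the peak caller and their settings are not given in the sources used here. Signal (never negative, scale not stated) and score (reproducibility, up to 1000) are values the authors deposited with each peak. The lowest score in the conservative thresholded list was 830. Of the pooled ranked lists, 16 columns of per-sample values were not used. The lists hold no read counts, so depth is unknown.

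Summits were assigned to starts of 19973 nuclear protein-coding genes of Ensembl release 115, from 1000 bp upstream to 500 bp downstream, with Python 3.11.15, pandas 2.3.3, numpy 2.4.6 and scipy 1.17.1. The assignment was checked on simulated summits. With 1 group no test between conditions exists. Shares have Clopper-Pearson 95% intervals, which cover counting over genes only. The conservative ranked list is the pooled one that holds all 882 conservative thresholded rows with the same score, against 562 in the other. Gene starts are annotated starts, often trans-splice sites, and the 2 classes by upstream neighbour use limits of 500 bp (same strand) and 1000 bp (divergent). Small RNA genes are those with the Ensembl class miRNA, ncRNA, snoRNA, snRNA or tRNA.

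The members and lists were chosen with earlier results of these data known. Named genes are all members with a thresholded summit, the 10 members with the strongest candidates and protein-coding neighbours that share a thresholded peak. Others, including the genes of related lists, were named after their values were seen. Alternatives were the other pooled list, each replicate alone, other windows and assignments, peaks away from small RNA genes and a score of at least 540, the last added after the data were seen.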

Additional observations from a re-analysis of the deposited data

How the results depend on the processing

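The number of members with a thresholded summit was 2 in the conservative list and 3 in the other pooled list. It was 0 with a window of 500 bp upstream to 100 bp downstream, 0 without peaks within 100 bp of a small RNA gene, and 5 when candidates with a score of at least 540 were taken instead. With 1 replicate left out it was 2 or 3. By nearest start and by the first gene of a run it stayed 2, but the genes were mrpl-23 and mrpl-36, or mrps-28 and mrps-14. The number with a ranked candidate was 58, between 40 and 63 under the alternatives on window, list and replicate, and 5 at a score of at least 540. The median signal was 34.9, between 30.7 and 35.8 under the other windows and lists, and between 17.0 and 25.0 with 1 replicate left out, where the lists have scales of their own. No conservative thresholded summit of a member (0) was shared with another start window. In the other pooled list 1 was, that of mrpl-39, and with 1 replicate left out the count ranged from 0 to 1. No paired analysis was possible because there is 1 group. Unknown depth, 2 replicates and shared controls limit how firmly weak candidates can be read.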
